A study of Homo sapiens with 6 samples.

Results

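The enzymes and regulators of cholesterol and fatty acid synthesis were followed in MDA-MB-231 cells after an siRNA against parathyroid hormone-related protein (PTHrP). The set held 34 genes, taken as a list of pathway members, and a gene was measured by every probe set (a group of short DNA probes for 1 transcript) whose array annotation named that gene alone. On this basis 30 of the 34 genes were measured, by 55 of the array's 22283 probe sets, and CYP51A1, FDFT1, FADS1 and ACSL3 were not analysed here. MDA-MB-231 is a line derived from human breast cancer and often used as a mesenchymal-like model. The 3 siPTHrP arrays came from cells electroporated with the siRNA against PTHrP, and the 3 siLuc arrays from cells electroporated with a control siRNA against luciferase. All cells were grown for 3 days before total RNA was isolated, and each of 3 independent experiments gave 1 array of each group. Its purpose, per the series' design text, was to find genes that respond to siPTHrP, with both RNAs taken from the same experiment. The labels describe 1 cell line and 1 siRNA per target.

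Cholesterol and fatty acids are both built from cytosolic acetyl-CoA, which ACLY (ATP citrate lyase) makes from citrate exported by mitochondria. In the sterol branch acetyl-CoA is condensed to mevalonate, turned into isoprenoid units and squalene, and then cyclised and trimmed to cholesterol. In the fatty acid branch ACACA carboxylates acetyl-CoA to malonyl-CoA, FASN builds palmitate, and desaturases and acyl-CoA synthetases process the product. Transcription of most of these genes is driven by the sterol regulatory element-binding proteins, encoded by SREBF1 and SREBF2, which are escorted by SCAP from the endoplasmic reticulum when sterols are low and held back there by INSIG1.

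The promoters of 4 members that the results return to are shown because they sit at the fork (ACLY), in the sterol branch (TM7SF2), in the fatty acid branch (SCD) and among the regulators (SREBF2). The sequences are RefSeq's for GRCh38.p14, each 300 bases on the gene's strand, from 250 bases before the annotated start to 50 after it. ACLY lies at chr17:41918973-41919272 (minus strand), SREBF2 at chr22:41832855-41833154 (plus), TM7SF2 at chr11:65111622-65111921 (plus) and SCD at chr10:100346983-100347282 (plus). Capitals mark matches, on either strand, to TCACNCCAC (the core of a sterol element), CACGTG (an E-box), CCAAT (bound by NF-Y) and GGGCGG (bound by Sp1).
ACLY: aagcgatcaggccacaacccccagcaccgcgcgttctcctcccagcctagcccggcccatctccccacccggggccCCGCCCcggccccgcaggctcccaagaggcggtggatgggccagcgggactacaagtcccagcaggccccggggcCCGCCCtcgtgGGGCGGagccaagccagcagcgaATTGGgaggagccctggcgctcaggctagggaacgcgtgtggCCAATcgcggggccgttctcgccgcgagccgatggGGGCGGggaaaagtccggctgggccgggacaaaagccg
SREBF2: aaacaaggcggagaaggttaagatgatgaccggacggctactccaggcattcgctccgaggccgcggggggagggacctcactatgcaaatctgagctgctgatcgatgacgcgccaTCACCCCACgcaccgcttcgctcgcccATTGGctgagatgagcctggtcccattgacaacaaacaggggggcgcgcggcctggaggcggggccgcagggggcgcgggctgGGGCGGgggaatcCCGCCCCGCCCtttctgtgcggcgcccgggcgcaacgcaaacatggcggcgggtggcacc
TM7SF2: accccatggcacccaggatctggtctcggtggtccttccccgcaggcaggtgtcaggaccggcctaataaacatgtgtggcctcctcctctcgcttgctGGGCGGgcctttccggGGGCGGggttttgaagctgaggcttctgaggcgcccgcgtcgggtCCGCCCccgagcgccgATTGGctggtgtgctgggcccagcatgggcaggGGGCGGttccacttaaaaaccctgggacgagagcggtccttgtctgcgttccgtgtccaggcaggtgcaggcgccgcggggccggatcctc
SCD: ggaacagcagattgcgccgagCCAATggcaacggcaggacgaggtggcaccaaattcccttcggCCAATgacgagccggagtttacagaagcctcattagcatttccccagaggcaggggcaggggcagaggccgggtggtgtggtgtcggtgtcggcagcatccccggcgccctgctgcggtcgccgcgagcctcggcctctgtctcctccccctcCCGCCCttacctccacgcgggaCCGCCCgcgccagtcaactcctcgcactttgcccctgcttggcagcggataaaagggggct

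CCAAT was found in 12 of the 15 sterol branch promoters that RefSeq's table held and in 2 of 7 fatty acid branch promoters, against 35.7% of 27305 promoters of the same length. GGGCGG was found in 28 of the 30 member promoters, against 44.6%. CACGTG was found in 4 of 30, against 7.43%. TCACNCCAC was found in 1 of 30, that of SREBF2, against 1.15% itself, where the match lies upstream of its CCAAT. ACLY had CCAAT matches that began 65 and 23 bases before its start and 4 GGGCGG matches. SCD had CCAAT matches that began 229 and 186 bases before its start, and TM7SF2 had 1 that began 74 bases before it. Among the printed promoters only that of SREBF2 had overlapping matches, 1 pair of GGGCGG. These matches are a description of letters in a window, and no binding was measured.

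The arrays gave MAS5 signals, linear intensities scaled to nearly the same trimmed mean (1500.4 to 1500.6) on all 6 arrays. The siLuc array of experiment 1 stood apart: its rank correlation with the other 5 across probe sets was 0.716 to 0.725, while those 5 correlated with each other at 0.882 to 0.960. Values without it, from a fit with no block, are given beside several members. Members whose sign turned without it are listed at the end. The 6 mesenchymal markers of the line (VIM, CD44, CAV1, AXL, PLAU and MSN) all passed the filter on low signal described next, with summed signals of 166095 to 227710 on siPTHrP arrays and 198517 to 220245 on siLuc arrays. Luminal markers summed to 5064 to 6241 on siPTHrP arrays and 4913 to 8211 on siLuc arrays, and 4 of these 7 passed. Of 3 measured leukocyte markers 1 passed, with sums of 793 to 1123 on siPTHrP arrays and 925 to 2731 on siLuc arrays. Of the 4 adipocyte markers 0 passed, and their sums were 397 to 519 on siPTHrP arrays and 759 to 2643 on siLuc arrays. In the luminal, leukocyte and adipocyte lists alike, the highest sum was that of the siLuc array that stood apart. The part of these markers in the results was not tested. PTHrP's own transcript is not analysed here, and the labels were therefore not checked against the knockdown. A probe set was tested if its mean log2(signal + 16) reached the 40th percentile of all probe sets, near a signal of 376. This kept 13329 probe sets, 49 of them of members, and left 6 member probe sets untested, but each of the 30 genes kept at least 1. Fold changes are siPTHrP over siLuc on this log2(signal + 16) scale, with the experiment as a block in limma, and p-values were adjusted over all 13329 by Benjamini-Hochberg. Where a gene had several probe sets, the one with the highest mean stood for it.

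No member passed the threshold of an adjusted p under 0.05, and across the array 0 of 13329 probe sets passed (0%). The log2 fold change was above 0 in 23 of 30 member genes, against 52.5% of all tested probe sets, and their median was 0.24 where all probe sets had 0.03. Median centring of the arrays, which moved the median of all probe sets to 0.36, put 28 of 30 above 0. The count was 20 of 30 without the siLuc array of experiment 1, and 21 of 30 without experiment 1 or without experiment 2. Before adjustment 6 of 30 genes had p under 0.05, and so did 12.1% of all probe sets. In these bulk RNAs a smaller share of cells with a transcript and less of it per cell cannot be told apart. Of these SQLE, TM7SF2, NPC2, ACACA and SCD were higher with siPTHrP (6.77% of all probe sets were), and ACLY was lower (5.36%). The difference had 1 direction in all 3 experiments in 14 of 30 genes, against 38.1% of all probe sets. In 12 genes it was upward (19.1% of all) and in 2, ACLY and MVK, downward (19.0% of all). The siPTHrP arrays lay entirely above the siLuc arrays in 6 genes (8.94% of all), and entirely below them in the same 2 genes (9.69% of all). These shares are counts over a list chosen with earlier results known, and no test was made of them. Taking the highest probe set of each of 8120 genes as the background gave nearly the same shares, 52.7% above 0 and 12.6% at an unadjusted p under 0.05.

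**Figure D1:**
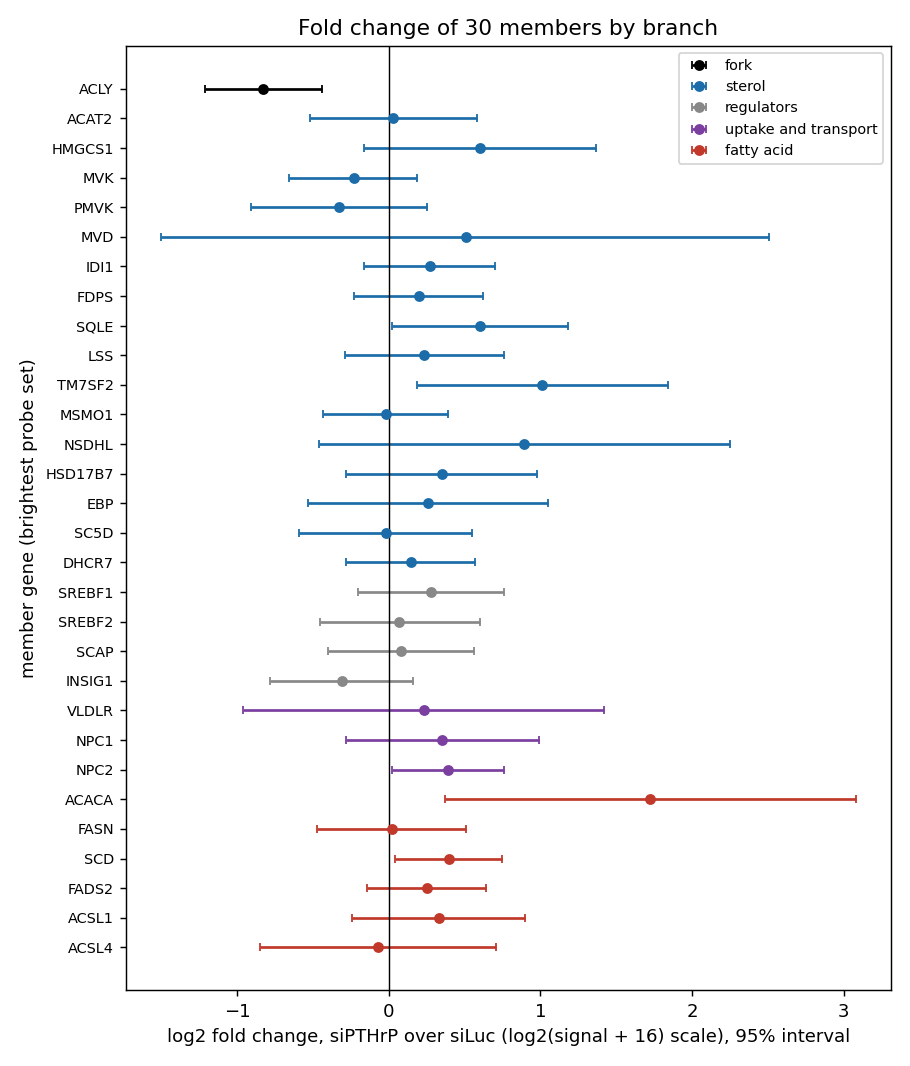
Log2 fold change (siPTHrP over siLuc) of the 30 measured genes with its 95% interval from limma, n = 3 arrays a group, coloured by branch and ordered along the pathway. ACLY is at -0.83, and the other intervals that leave out 0, those of SQLE, TM7SF2, NPC2, ACACA and SCD, lie above it.

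ACLY, the enzyme at the fork, had the smallest p of all members and was lower with siPTHrP. Its probe set with the highest signal, 201128_s_at, gave 6888, 8505 and 5698 on the siPTHrP arrays of experiments 1, 2 and 3, against 14202, 12793 and 10302 on the siLuc arrays. Every siPTHrP array lay below every siLuc array. The means were 7030 ± 1410 with siPTHrP and 12430 ± 1970 with siLuc (SD, n = 3), which is 0.563-fold (log2 fold change -0.83, SE 0.17, limma adjusted p = 0.304). The probe set 201127_s_at gave 2243, 1978 and 2879 on siPTHrP arrays, against 5418, 3528 and 5565 on siLuc arrays. Here too the groups did not overlap, and the fold was 0.495 (log2 fold change -1.01, SE 0.21, limma adjusted p = 0.304). The third, 210337_s_at, gave 4015, 3247 and 3247 on siPTHrP arrays, against 3927, 7051 and 4656 on siLuc arrays. These overlapped, since experiment 1 gave a log2 difference of 0.03 where experiments 2 and 3 gave -1.11 and -0.52, and the fold was 0.691 (limma adjusted p = 0.42). The log2 fold change of 201128_s_at was -0.73 without the siLuc array that stood apart (limma adjusted p = 0.312). This probe set passed in 1 of 12 alternatives, with estimated array weights (-0.72, limma adjusted p = 0.0352). Its limma adjusted p ranged from 0.0352 to 0.514. Its log2 fold change ran from -0.98, with quantile normalization, to -0.50, with median centring. That of 210337_s_at ran from -0.82 to -0.21.

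**Figure D2:**
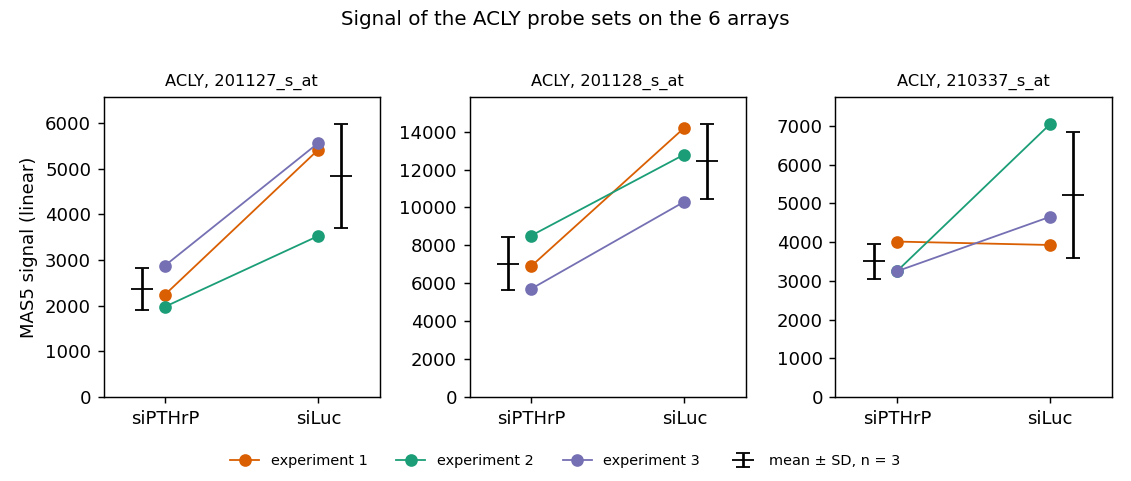
MAS5 signal (linear axis from 0) of the 3 ACLY probe sets on siPTHrP and siLuc arrays, with lines joining the arrays of an experiment and black marks for the mean ± SD of 3 arrays. For 201127_s_at and 201128_s_at all lines run upward to siLuc, and for 210337_s_at the line of experiment 1 is nearly flat (4015 with siPTHrP, 3927 with siLuc).

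In the sterol branch 12 of the 16 measured genes lay above 0, against 52.5% of all tested probe sets. The branch's log2 fold changes ran from -0.33 to 1.01 around a median of 0.25. The median of the per-gene differences was 0.12, 0.15 and 0.18 in experiments 1, 2 and 3, where that of all probe sets was 0.08, -0.04 and -0.02. Without the siLuc array of experiment 1 the branch's fitted median was 0.11. No gene of the branch passed the threshold, and 2 of 16 had an unadjusted p under 0.05, close to the 12.1% of all probe sets.

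In the steps up to mevalonate and its activation the members did not share a direction. ACAT2, which condenses acetyl-CoA, stood at a log2 fold change of 0.03 (95% interval -0.52 to 0.58), and HMGCS1, the synthase that makes hydroxymethylglutaryl-CoA, at 1.52-fold (95% interval 0.895 to 2.58). The HMGCS1 probe set 221750_at gave 1986, 2924 and 1686 on siPTHrP arrays, against 2103, 2152 and 607 on siLuc arrays. Only the siLuc array of experiment 3 was low among these 6, and the log2 differences were -0.08, 0.44 and 1.45. The log2 fold change was 0.60 with the siLuc array of experiment 1 and 0.89 without it. Without experiment 3, which held the low array, the log2 fold change was 0.18. The other HMGCS1 probe set gave 1.09-fold. The kinase MVK, which phosphorylates mevalonate, gave 3963, 4088 and 3904 on siPTHrP arrays, against 5008, 4966 and 4133 on siLuc arrays of its probe set 36907_at. These groups did not overlap, but the difference was small, 0.851-fold (log2 fold change -0.23, SE 0.19, limma adjusted p = 0.601), and its sign turned with median centring (0.09). On MVK probe set 204056_s_at the groups overlapped (0.598-fold, interval 0.231 to 1.54), with log2 differences of 0.58, -0.33 and -2.48. MVK probe set 215649_s_at, under the filter, was higher with siPTHrP in all 3 experiments (1.29, 0.31 and 0.30). PMVK, the next kinase, stood at 0.797-fold (0.534 to 1.19). MVD, the decarboxylase that follows, gave 460, 688 and 638 on siPTHrP arrays, against 2111, 74 and 383 on siLuc arrays, which were the uneven ones. Its log2 difference ran from -2.16 in experiment 1 to 2.97 in experiment 2, and the fold was 1.42 (interval 0.354 to 5.70). The 2111 came from the siLuc array that stood apart, and the log2 fold change was 0.51 with that array and 1.67 without it (limma unadjusted p = 0.0357, adjusted p = 0.383). It was -0.72 without experiment 2. IDI1, the isomerase of the isoprenoid units, stood at log2 fold changes of 0.27 and 0.30 on its 2 probe sets, and FDPS, which joins those units to farnesyl diphosphate, at 1.15-fold (0.854 to 1.54).

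From squalene onward the genes with the smallest p-values were TM7SF2 and SQLE, and none passed after adjustment. TM7SF2, a sterol reductase, gave 1768, 2467 and 1588 on siPTHrP arrays, against 1520, 732 and 738 on siLuc arrays. The groups did not overlap, although experiment 1 contributed little, with a log2 difference of 0.22 where experiments 2 and 3 gave 1.73 and 1.09. The fold was 2.02 (log2 fold change 1.01, SE 0.37, limma adjusted p = 0.377). It was 1.36 on the log2 scale without the siLuc array of experiment 1 (limma adjusted p = 0.261), and 0.65 without experiment 2. Over 12 alternatives its adjusted p ranged from 0.0395, with array weights, to 0.753.

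SQLE, squalene epoxidase, a rate-limiting step of the later pathway, gave 3109, 4051 and 2722 on siPTHrP arrays, against 1696, 4018 and 1431 on siLuc arrays of probe set 209218_at. The arrays of experiment 2 were alike, and those of experiments 1 and 3 differed (1.52-fold, log2 fold change 0.60, SE 0.26, limma adjusted p = 0.408). Without the siLuc array of experiment 1 the log2 fold change was 0.43, and its unadjusted limma p was 0.294 in place of 0.0454. The other SQLE probe sets gave log2 fold changes of 0.24 and -0.72, so they did not share a sign. LSS, which cyclises the epoxide to lanosterol, stood at 1.17-fold (0.815 to 1.69), with a log2 fold change of -0.03 without experiment 1. The LSS probe set 211019_s_at gave a log2 fold change of -0.06. MSMO1, a methyl sterol oxidase, stood at 0.986-fold (0.744 to 1.31), SC5D, a desaturase, at 0.984-fold (0.663 to 1.46) and DHCR7, the reductase of the last step, at 1.11-fold (0.825 to 1.49). For DHCR7 the log2 fold change was 0.15 with the siLuc array of experiment 1 and 0.03 without it. HSD17B7, a keto sterol reductase, gave 1830, 2836 and 1857 on siPTHrP arrays, against 1678, 1585 and 1750 on siLuc arrays. These groups did not overlap either (1.27-fold, interval 0.823 to 1.97, limma adjusted p = 0.596). HSD17B7 and IDI1 were measured by probe sets of the _x_at kind alone, whose probes can also bind other transcripts. For NSDHL, a sterol dehydrogenase, 1 probe set gave 1.86-fold and the other 0.570-fold. The first rested on the siLuc array of experiment 1, which gave 90.4 where the other 5 arrays gave 631 to 1358, and its log2 fold change was -0.25 without that array. EBP, the sterol isomerase, stood at a log2 fold change of 0.26 (95% interval -0.53 to 1.05), and of -0.13 without that array.

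Levels also differed between experiments, in a pattern noticed after the values were seen and not tested. The siPTHrP array of experiment 2 was the highest of the 6 arrays for 8 of 16 sterol branch genes and for 3 of 6 fatty acid branch genes (ACACA, FADS2 and ACSL1), against 12.5% of all tested probe sets. The sterol branch genes were ACAT2, HMGCS1, IDI1, FDPS, SQLE, TM7SF2, MSMO1 and HSD17B7. FDPS, for example, gave 4418, 6190 and 3759 on siPTHrP arrays, against 4051, 4890 and 3435 on siLuc arrays. MSMO1 gave 8421, 12360 and 8083 on siPTHrP arrays, against 10735, 12326 and 6623 on siLuc arrays. In both genes experiment 2 was the highest and experiment 3 the lowest within each group. The median deviation of the sterol branch from each gene's own mean (log2 scale) was -0.01, 0.49 and -0.07 on siPTHrP arrays 1, 2 and 3, against -0.06, 0.20 and -0.31 on siLuc arrays. Over all tested probe sets it was 0.03 to 0.04 on siPTHrP arrays and -0.04 to 0.06 on siLuc arrays.

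**Figure D3:**
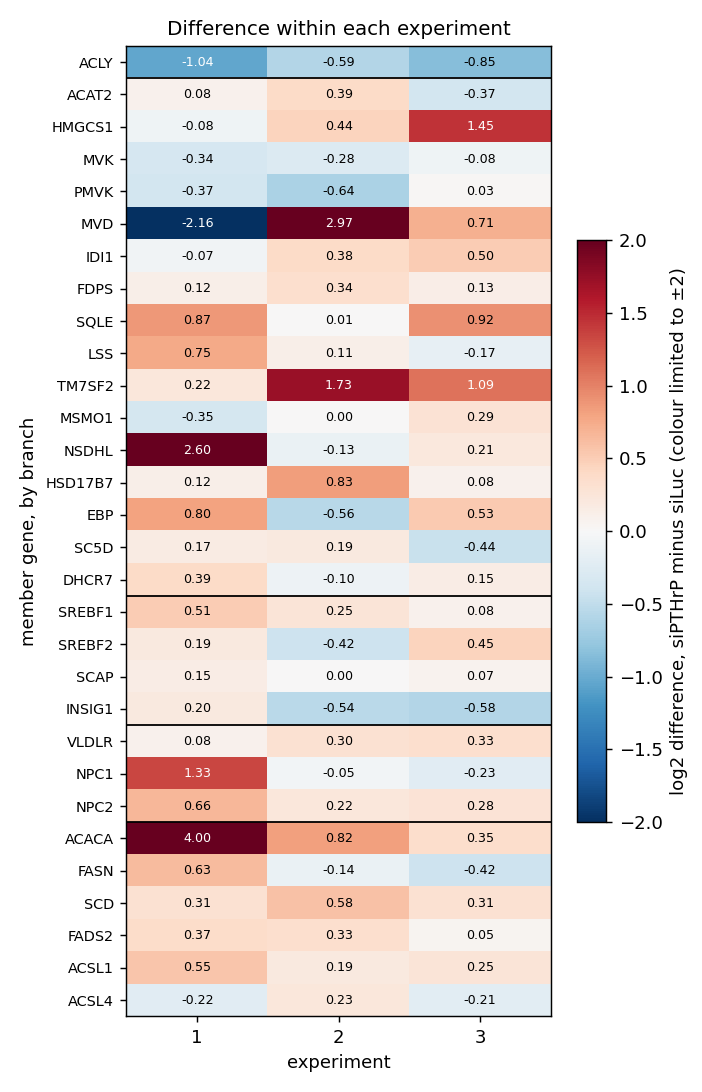
Log2 difference (siPTHrP minus siLuc) within experiments 1, 2 and 3 for the 30 genes, ordered by branch with ACLY at the top, red above 0 and blue below, with the colour limited to ±2 and the value printed in each cell. ACLY and MVK are blue in all 3 columns, and the extreme cells are ACACA and NSDHL (2.60) in experiment 1 and MVD (-2.16 in experiment 1, 2.97 in experiment 2).

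The fatty acid branch lay above 0 in 5 of its 6 measured genes (median 0.29 on the log2 scale, range -0.07 to 1.72), against 52.5% of all tested probe sets. Of the 6 genes, 4 were higher with siPTHrP in all 3 experiments, against 19.1% of all. Median differences were 0.46, 0.28 and 0.15 in experiments 1, 2 and 3, where those of all probe sets were 0.08, -0.04 and -0.02. The branch's fitted median was 0.25 without the siLuc array of experiment 1. ACACA and SCD had an unadjusted p under 0.05, as did 12.1% of all probe sets, and no gene passed after adjustment.

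ACACA, the acetyl-CoA carboxylase that commits carbon to fatty acids, gave 3146, 3353 and 2492 on siPTHrP arrays, against 182, 1891 and 1948 on siLuc arrays of its probe set 212186_at. All siPTHrP arrays lay above all siLuc arrays, but the siLuc array of experiment 1 alone was far below the rest. The fold of 3.30 (log2 fold change 1.72, SE 0.60, limma adjusted p = 0.366) rested on it: the log2 fold change was 0.63 without that array and 0.59 without experiment 1. ACACA passed without experiment 3 (log2 fold change 2.41, limma adjusted p = 0.00128), a fit that keeps this array, and over 12 alternatives its adjusted p reached 0.532. The other ACACA probe set, 214358_at, was under the filter. Its log2 differences were -1.78, 1.07 and -1.96 in experiments 1, 2 and 3, so it did not share the direction of 212186_at.

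SCD, the stearoyl-CoA desaturase that makes monounsaturated fatty acids, showed a smaller and more even difference. Its probe set 200832_s_at gave 27798, 25800 and 25487 on siPTHrP arrays, against 22465, 17290 and 20577 on siLuc arrays. The groups did not overlap, and the means were 26360 ± 1250 with siPTHrP and 20110 ± 2620 with siLuc (SD, n = 3), which is 1.32-fold (95% interval 1.03 to 1.69, limma adjusted p = 0.396). Probe set 200831_s_at also had groups apart, with 14610, 14275 and 20990 on siPTHrP arrays, against 9730, 13252 and 14081 on siLuc arrays (1.34-fold). The remaining SCD probe sets gave log2 fold changes of 0.01 and 0.24, with overlapping groups and a log2 difference below 0 in experiment 2 in both.

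FASN, the synthase that builds palmitate, stood at 1.01-fold (95% interval 0.724 to 1.42), with 11277, 10557 and 8138 on siPTHrP arrays, against 7303, 11665 and 10917 on siLuc arrays. Its log2 difference was 0.63 in experiment 1 and -0.14 and -0.42 in experiments 2 and 3. The log2 fold change of FASN was 0.02 with the siLuc array of experiment 1 and -0.19 without it. FADS2, a desaturase of polyunsaturated fatty acids, gave 6721, 8331 and 7494 on siPTHrP arrays, against 5197, 6641 and 7247 on siLuc arrays (1.19-fold, interval 0.906 to 1.56). Its log2 fold change was 0.25 with the siLuc array of experiment 1 and 0.11 without it. It was higher in all 3 experiments, with overlapping groups. ACSL1, which activates long-chain fatty acids, gave 2223, 2254 and 2233 on siPTHrP arrays, against 1509, 1976 and 1875 on siLuc arrays, with groups apart (1.26-fold, interval 0.846 to 1.87). Without that array its log2 fold change was 0.21 in place of 0.33. ACSL4, an acyl-CoA synthetase that favours arachidonate, stood at 0.953-fold (0.556 to 1.64) and was low in experiment 3 in both groups (504 with siPTHrP, 586 with siLuc). The log2 fold change of ACSL4 was -0.07 with the siLuc array of experiment 1 and 0.29 without it.

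The regulators showed small differences. On the probe sets that stood for them 0 of 4 had an unadjusted p under 0.05 (limma, smallest adjusted p 0.534), against 12.1% of all. SREBF1 gave 4499, 3040 and 2986 on siPTHrP arrays, against 3154, 2550 and 2822 on siLuc arrays. It was higher in all 3 experiments with overlapping groups (1.22-fold, 95% interval 0.869 to 1.70). SREBF2, whose promoter holds the sterol element core shown above, gave 3317, 2833 and 4584 on siPTHrP arrays, against 2911, 3802 and 3344 on siLuc arrays (1.05-fold, interval 0.730 to 1.52). SCAP gave 2824, 3002 and 3182 on siPTHrP arrays, against 2541, 2993 and 3020 on siLuc arrays (1.05-fold, interval 0.757 to 1.47). INSIG1, itself a target of the sterol regulatory proteins, lay below 0 on all 3 probe sets, and 201627_s_at turned to 0.02 with median centring. The fold on 201626_at was 0.924 (interval 0.662 to 1.29), and its log2 fold change ran from -0.19 to 0.21 over 12 alternatives. Probe set 201627_s_at gave 6260, 6722 and 3970 on siPTHrP arrays, against 5440, 9788 and 5943 on siLuc arrays (0.809-fold, interval 0.584 to 1.12). Probe set 201625_s_at gave 2329, 3253 and 1384 on siPTHrP arrays, against 3589, 3550 and 2937 on siLuc arrays. This probe set was lower with siPTHrP in each experiment, with groups that overlapped in range. Its fold was 0.656 (interval 0.442 to 0.974, limma unadjusted p = 0.039, adjusted p = 0.402). It was the 1 of 7 tested regulator probe sets with an unadjusted p under 0.05, against 12.1% of all.

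Among genes of sterol uptake and lysosomal export all 3 lay above 0, as did 52.5% of all tested probe sets. NPC2, which hands cholesterol to NPC1 in the lysosome, gave 20866, 21304 and 22889 on siPTHrP arrays, against 13205, 18244 and 18792 on siLuc arrays. The groups did not overlap (1.31-fold, 95% interval 1.01 to 1.69, limma adjusted p = 0.404), and without the siLuc array of experiment 1 the log2 fold change was 0.23 in place of 0.39. NPC1, the membrane partner, stood at 1.28-fold (0.821 to 1.98) with a log2 difference of 1.33 in experiment 1 and -0.05 and -0.23 in experiments 2 and 3. It was -0.04 on the log2 scale without that array. VLDLR, a lipoprotein receptor, gave 630, 612 and 511 on siPTHrP arrays, against 597, 495 and 403 on siLuc arrays. It was higher in all 3 experiments with overlapping groups (log2 fold change 0.23, 95% interval -0.96 to 1.42).

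**Figure D4:**
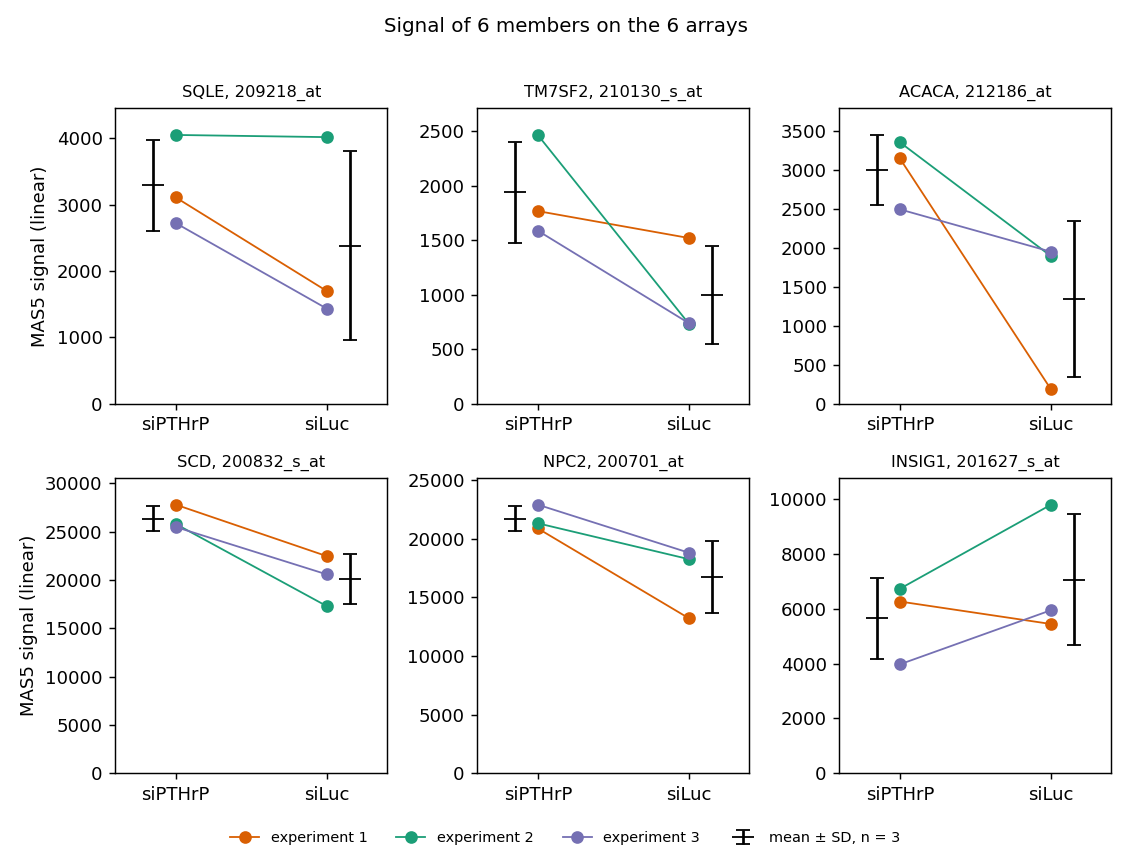
MAS5 signal (linear axes from 0) of SQLE, TM7SF2, ACACA, SCD, NPC2 and INSIG1 on siPTHrP and siLuc arrays, with lines joining the arrays of an experiment and black marks for the mean ± SD of 3 arrays. TM7SF2, ACACA, SCD and NPC2 have siPTHrP arrays above all siLuc arrays, and the low siLuc point of ACACA (182) is the array of experiment 1.

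Neighbouring pathways were counted in the same way on lists chosen with earlier results known, and 0 of their genes passed after adjustment. Other scalings were not run for these lists. Over all tested probe sets 52.5% lay above 0, with a median log2 fold change of 0.03. Other sterol genes lay above 0 in 8 of 11 measured genes (median log2 fold change 0.37). Among these LIPA, the lysosomal acid lipase that frees cholesterol from its esters, gave 4373, 4894 and 3793 on siPTHrP arrays, against 2398, 3281 and 2765 on siLuc arrays (1.55-fold, limma adjusted p = 0.360). Its groups did not overlap. Other genes of fatty acid synthesis and elongation had 7 of 12 above 0 (median 0.09), and genes of fatty acid oxidation 10 of 14 (median 0.09). By experiment 13, 7 and 8 of the 14 oxidation genes lay above 0 in experiments 1, 2 and 3. Of all 13329 tested probe sets 7112, 6261 and 6482 did. Among the oxidation genes ETFB, a subunit of the electron transfer flavoprotein, gave 4064, 4534 and 4669 on siPTHrP arrays, against 2212, 2583 and 3665 on siLuc arrays (1.60-fold, limma adjusted p = 0.351). Genes of NADPH supply had 4 of 4 above 0 (median 0.33), with IDH1, the cytosolic isocitrate dehydrogenase, at 1.29-fold.

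Liver X receptor genes had 3 of 5 above 0 (median 0.02), against 52.5% of all tested probe sets (median 0.03). Of these genes MYLIP, a ubiquitin ligase for lipoprotein receptors, stood at 1.63-fold. Glycerolipid synthesis genes had 3 of 5 above 0 (median 0.04). There AGPAT2, an acyltransferase that makes phosphatidic acid, gave 3004, 2435 and 3648 on siPTHrP arrays, against 4155, 5272 and 5216 on siLuc arrays. Its groups did not overlap, and it was the one gene of that list with an unadjusted p under 0.05 (0.617-fold, limma adjusted p = 0.347). Of the genes for factors that bind these promoter motifs, 4 of 5 lay below 0 (median -0.44). NFYC, a subunit of NF-Y, stood at 0.659-fold on 202216_x_at (limma adjusted p = 0.393), while its probe set 211251_x_at gave a log2 fold change of 0.07.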

How the data were processed

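Total RNA of 6 MDA-MB-231 samples, isolated with RNeasy and biotin-labelled, was hybridised to Affymetrix GeneChip human genome arrays, per the labels' protocols. The deposited values are linear MAS5 signal intensities, per the submitters' processing notes; no version is given there. Decimals occurred in 90.1% of the values of siLuc experiment 1 and in none of the other arrays. MAS5 makes low signals noisy, and the number of arrays limits precision.

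Of 22283 probe sets 68 controls were left out. R 4.3.3 and limma 3.58.1 (lmFit, eBayes with an intensity trend, two-sided p, 2 residual and 7.17 prior degrees of freedom) were used on log2(intensity + 16) of the deposited values. The offset shrinks fold changes of dim probe sets. Tests ran across all 13329 kept probe sets. The same fit was also run on simulated data drawn with no effect of the experiment, so the block was not tried there. The outcome of that run is not reported here.

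The experiment number was the block, since the series' design text compares RNAs of the same experiment. The unnumbered siLuc sample was taken as experiment 1 by elimination, and a sample titled siLuc 3 carries 2 in its description; the title was followed. Deviations from group means correlated at -0.0124, 0.157 and 0.157 within experiments 1, 2 and 3 and at -0.206 to 0.132 otherwise. Separate experiments are the replicates.

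Gene names came from the array's annotation table (1 gene for 19071 probe sets, several for 1043, 2169 unnamed here), updated by Entrez identifier to RefSeq GRCh38.p14. The members and all lists were chosen with earlier results of these data known. Every member was named, each by its highest probe set, and of the other lists up to 3 genes with the smallest p could be named. Alternatives changed the block, offset, normalization, filter, trend and array weights, or left out arrays.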

Additional observations from a re-analysis of the deposited data

How the results depend on the processing

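Of 30 member genes, 16 kept their sign in all 12 alternatives and 14 did not in at least 1. The count of 0 probe sets past the threshold became 177 with estimated array weights, and 38 to 175 when 1 experiment was left out. It stayed at 0 with no replicate block, where 1378 probe sets had an unadjusted p under 0.05 in place of 1618. With no filter there were 2513 such probe sets among 22215 tested. The sterol branch median was 0.14 with quantile normalization, 0.57 with median centring, 0.19 with array weights, 0.09 to 0.21 with 1 experiment left out, 0.11 without the siLuc array of experiment 1 and no replicate block, and 0.14 with the mean of a gene's probe sets. The fatty acid branch median of 0.29 was 0.19 with quantile normalization, 0.20 to 0.36 with 1 experiment left out, and 0.62 with median centring, which moved the median of all probe sets to 0.36, and 28 of 30 members then lay above 0. Signs turned with median centring for MVK (0.09), MSMO1 (0.31), SC5D (0.30), INSIG1 (0.02) and ACSL4 (0.26), and with quantile normalization for FASN (-0.14) and ACSL4 (0.03). With array weights they turned for MSMO1 (0.05), EBP (-0.08), SREBF2 (-0.09), FASN (-0.15) and ACSL4 (0.05). Without the siLuc array of experiment 1 they turned for MSMO1 (0.06), NSDHL (-0.25), EBP (-0.13), SC5D (0.00), SREBF2 (-0.02), SCAP (-0.00), NPC1 (-0.04), FASN (-0.19) and ACSL4 (0.29). With 1 experiment left out in turn, signs also turned, with ranges of -0.14 to 0.24 for ACAT2, -0.72 to 1.84 for MVD, -0.03 to 0.43 for LSS, -0.17 to 0.15 for MSMO1, -0.01 to 0.67 for EBP, -0.13 to 0.18 for SC5D, -0.12 to 0.32 for SREBF2, -0.14 to 0.64 for NPC1, -0.28 to 0.24 for FASN and -0.22 to 0.01 for ACSL4. The cause of these changes was not tested.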
